A study of Homo sapiens with 6 samples.

Results

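Transcribed pseudogenes are the rows to which the deposited files give that biotype: copies of genes, or genes that have lost their coding function, from which RNA is still made. Of 1118 such rows among 46427 genes listed, 252 were selected on averaging 1 FPKM or more across the 6 libraries, with the globin pseudogene HBBP1 left out. FPKM is a level scaled to transcript length and library size. RNA came from K562 cells, a human erythroleukemia line that is wild type per the labels: 3 libraries of cells exposed to 10 µM HR-19011 during 24 h and 3 vehicle libraries of cells given 0.1% DMSO. The labels do not give the DMSO percentage of the HR-19011 cells, and HR-19011 is known here by its code name. No label says that the libraries of a group are separate cultures; the p-values therefore cover the variation among these libraries alone, and that variation may be technical. The comparison asks how each pseudogene differed between HR-19011 and vehicle, and whether it did so by as much as the gene its symbol names, called its parent here.

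Because the mean over all libraries chose the members, a pseudogene low in one group could enter through the other. Both group means were at least 1 FPKM for 224 members, the vehicle mean was under 1 FPKM for 22, and the HR-19011 mean was under 1 FPKM for 6. FKBP9P1, USP32P3, USP32P1, ASNSP1, RPLP0P2, CCDC144CP and NMRAL2P, all of the 10 highest below, were among the 22. They entered through HR-19011, so their being higher there is in part a result of the selection. LOC107985567, of the 10 lowest, was one of the 6. Just inside the limit stood GOLGA6L5P with a mean of 1.00 FPKM, ZNRF2P1 with 1.01 FPKM and SSX8P with 1.02 FPKM. Just outside it stood AGAP12P with 0.987 FPKM, UBE2FP1 with 0.982 FPKM and NOTCH2NLR with 0.979 FPKM. Of the other transcribed pseudogenes, 513 were above 0 with a mean under 1 FPKM and 352 were listed at 0 in every library.

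Pseudogenes arise mostly in 2 ways: a stretch of DNA with its exons and introns is duplicated (unprocessed), or an mRNA is copied back into DNA and inserted elsewhere without introns (processed). A unitary pseudogene is a gene that lost its function in place. Duplicated segments often carry parts of several genes, so neighbouring pseudogenes can come as sets. Some pseudogenes are transcribed from a promoter of their own, others from that of a neighbour, and their RNA can be so close to the parent's mRNA that short reads match both.

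The windows of 80 bases that follow show how close some members are to the parent, from GENCODE 29 transcripts on GRCh38. Each is a stretch without gaps inside 1 exon, in the parent's coding sequence, with an identity near that of the whole alignment; capitals mark the bases that differ. FKBP9P1 (chr7:55687845-55687924, minus strand), the member with the highest log2 fold change of FPKM + 1, matched FKBP9 (chr7:33000115-33000194, plus strand) at 98.3% of aligned bases.
FKBP9P1: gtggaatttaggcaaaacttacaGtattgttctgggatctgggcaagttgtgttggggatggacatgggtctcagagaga
FKBP9: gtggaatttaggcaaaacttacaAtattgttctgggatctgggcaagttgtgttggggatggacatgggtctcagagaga
USP32P3 (chr17:20424592-20424671, plus strand), which rose while its parent did not pass the test, matched USP32 (chr17:60185572-60185651, minus strand) at 96.2%.
USP32P3: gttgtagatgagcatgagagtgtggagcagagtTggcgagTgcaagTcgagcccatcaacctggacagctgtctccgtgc
USP32: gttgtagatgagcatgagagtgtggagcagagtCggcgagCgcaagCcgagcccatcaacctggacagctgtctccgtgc
GTF2IP4 (chr7:73175415-73175494, plus strand) rose while GTF2I (chr7:74728786-74728865, plus strand) fell. Their transcripts matched at 99.8%, with 1268 bases in a row identical, and this window has no difference.
GTF2IP4: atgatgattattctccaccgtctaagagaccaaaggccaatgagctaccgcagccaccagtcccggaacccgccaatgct
GTF2I: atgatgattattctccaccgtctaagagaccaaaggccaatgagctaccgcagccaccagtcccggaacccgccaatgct
SLC7A5P2 (chr16:21520286-21520365, minus strand) lagged behind SLC7A5 (chr16:87869343-87869422, minus strand) and matched it at 96.3%.
SLC7A5P2: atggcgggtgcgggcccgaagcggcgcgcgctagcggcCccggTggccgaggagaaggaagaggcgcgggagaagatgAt
SLC7A5: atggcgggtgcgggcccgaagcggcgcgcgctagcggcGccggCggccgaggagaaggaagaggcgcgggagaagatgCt
CLUHP3 (chr16:31704301-31704380, plus strand), whose parent fell without it, is a diverged copy of CLUH (chr17:2703328-2703407, minus strand) at 76.7%, with no run of identical bases longer than 30.
CLUHP3: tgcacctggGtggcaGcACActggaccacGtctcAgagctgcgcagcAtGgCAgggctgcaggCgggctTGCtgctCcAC
CLUH: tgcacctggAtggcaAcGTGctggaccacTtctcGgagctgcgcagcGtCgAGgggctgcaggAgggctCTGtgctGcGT

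The labels do not state to which gene the authors' counting gave a read with more than 1 match, so the level of a near-identical copy is uncertain. For 215 members with a GENCODE match, a median of 44.2% of the 31-base words of the transcripts occurred in another gene. At least 50% of the words did so in 98 members, and under 20% in 63. In GENCODE, 109 of the 215 were transcribed unprocessed pseudogenes, 28 transcribed processed and 13 transcribed unitary ones. Another 28 were unprocessed and 15 processed pseudogenes with no mark of transcription. Exons of 196 members numbered more than 1, and 19 had a single exon. Exons of 17 members overlapped a tested gene on the same strand and those of 33 on the opposite strand.

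The 13 K562 markers examined (globins, GATA1, KLF1, TAL1, TFRC, LMO2, BCR and ABL1) stood at 1 FPKM or more in every library, and their sum was 4837 to 5137 FPKM in HR-19011 and 12298 to 12454 FPKM in vehicle. Of markers of other blood, stromal and endothelial cells, CD3D and PECAM1 had a mean of at least 1 FPKM; the 4 T-cell markers summed to 11.7 to 12.4 FPKM in HR-19011 and 6.21 to 9.14 FPKM in vehicle, the 3 endothelial ones to 1.36 to 1.81 FPKM in HR-19011 and 0.970 to 1.22 FPKM in vehicle. The part of these shifts in the changes of the pseudogenes was not tested. Summed FPKM of all genes was 423885 ± 3632 in HR-19011 and 461938 ± 5487 in vehicle (SD, n = 3 each), and the sequencing depth behind the values is unknown. Pearson correlations of log2(FPKM + 1) over all tested genes were 0.997 to 0.998 within groups and 0.891 to 0.894 between them. In bulk RNA, a change in the number of cells that make a transcript and a change in RNA per cell cannot be told apart.

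The members were mostly low transcripts that were, as deposited, a little more abundant in HR-19011. Their median log2 fold change was below 0 with TMM scaling (-0.0022) and with quantile normalization (-0.0471). Together they summed to 1689 ± 20.2 FPKM in HR-19011 and 1500 ± 26.4 FPKM in vehicle (SD, n = 3 each), or 0.398% of all FPKM in HR-19011 and 0.325% in vehicle. Their median level was 3.77 FPKM, against 10.95 FPKM for tested coding genes, 161 members lay under 5 FPKM and 39 reached 10 FPKM. Transcribed pseudogenes at 1 FPKM or more, as deposited, numbered 272 ± 4.16 per library in HR-19011 and 234 ± 1.15 in vehicle. The same count over all genes is not given, so whether this difference is particular to pseudogenes was not tested.

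Of the 252 members, 139 were higher and 62 lower in HR-19011, and 51 did not pass the test, which was limma on log2(FPKM + 1) with Benjamini-Hochberg adjustment over all 11856 tested genes and a threshold of 0.05. Such calls were common in this comparison: 84.4% of all tested genes were called, 46.4% higher and 38% lower. The members' 79.8% was thus a little below that background, with 55.2% higher and 24.6% lower. The 3 HR-19011 values did not overlap the 3 vehicle values in 81.7% of members, against 85.2% of all tested genes. The members' median log2 fold change was 0.20, beside 0.07 for all tested genes. Changes of at least 2-fold in FPKM + 1 were found for 30 members that rose and 2 that fell, and for 1427 and 765 of all tested genes. The added 1 shrinks the changes of low genes more, so counts of members and of all genes are not fully alike. By FPKM means alone more members fell at least 2-fold, LOC107985567 among them. Among the 224 members with both group means at 1 FPKM or more, 117 were higher and 56 lower with a median of 0.16. Of these, 19 rose and 2 fell at least 2-fold in FPKM + 1, beside 1049 and 720 of all genes tested with such means.

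Low genes of other kinds leaned the same way. Among members of 1 to 5 FPKM, 61.5% rose with a median log2 fold change of 0.29; of all tested genes in that range 57.4% rose, with a median of 0.28, and of coding genes 61.7%, with a median of 0.33. Among the 91 members of at least 5 FPKM, 40 rose and 31 fell (44.0% and 34.1%), with a median of 0.07. Of all tested genes at that level, 41.3% rose and 45.7% fell, with a median of -0.04. Rows of the plain pseudogene biotype had 100 higher and 111 lower of 332 tested, while lncRNA genes had 389 higher and 154 lower of 682.

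The balance of directions depended on how the libraries were scaled. With TMM scaling 105 members were higher and 95 lower, with quantile normalization 99 and 103, and with conversion to TPM 157 and 40. The median of all tested genes moved as well, to -0.15 with TMM scaling and 0.23 in TPM. Relative to that median, the members stood 0.13 higher as deposited, 0.15 with TMM scaling, 0.10 in TPM and 0.013 with quantile normalization. As deposited and under all 4 other scalings, 90 members were called higher and 40 lower.

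**Figure D1:**
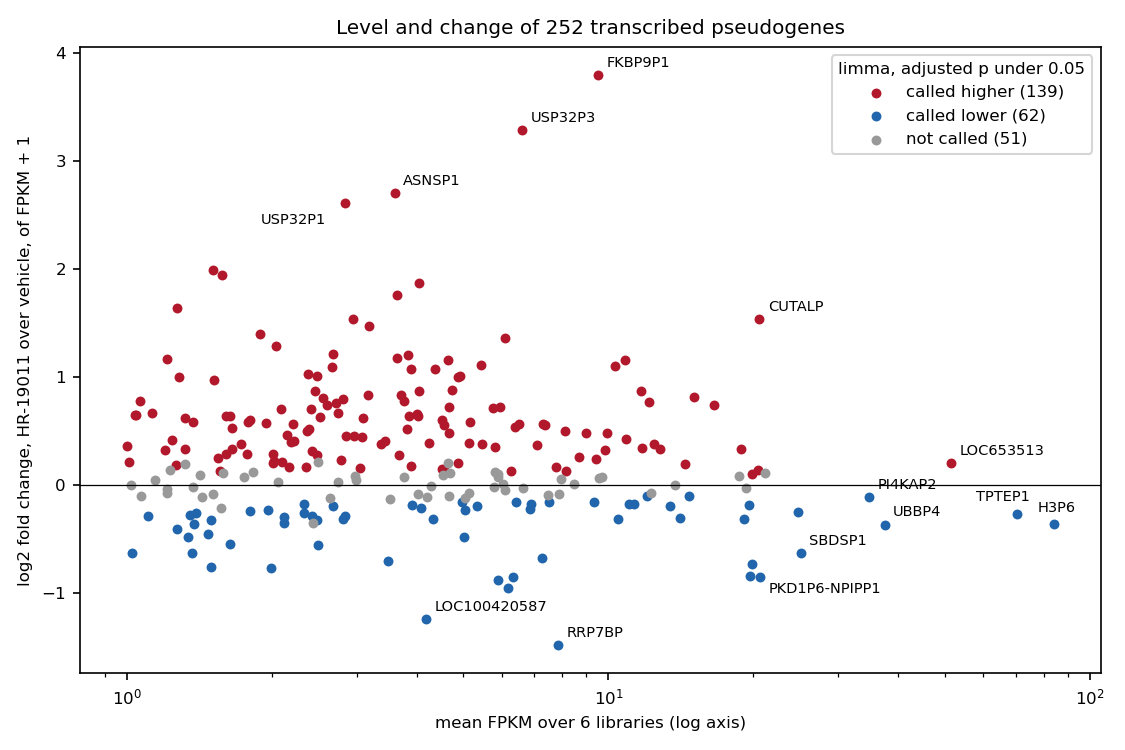
Log2 fold change of FPKM + 1, HR-19011 over vehicle (vertical axis), against mean FPKM over the 6 libraries (log horizontal axis) for the 252 members, coloured by the limma call. The members with the highest fold changes lie under 10 FPKM, CUTALP at a mean of 20.6 FPKM aside, and 5 of the 6 most abundant members are called lower.

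FKBP9P1 had the highest log2 fold change of FPKM + 1. Its parent FKBP9 encodes a peptidyl-prolyl isomerase of the endoplasmic reticulum. By FPKM means alone, the ratio was larger for some members near 0 in vehicle, such as USP32P1 and RPLP0P2. FKBP9P1 stood at 18.3, 18.6 and 18.9 FPKM in HR-19011, against 0.422, 0.545 and 0.298 FPKM in vehicle. The log2 fold change was 3.79 ± 0.0653 (SE, adjusted p = 2.29e-10). FKBP9 rose as well, with 11.3, 11.4 and 11.6 FPKM in HR-19011 and 5.08, 4.61 and 5.64 FPKM in vehicle, so the pseudogene, well under its parent in vehicle, exceeded it in HR-19011. The difference of the log2 fold changes was 2.76 ± 0.118 (SE, adjusted p = 1.91e-06 over pairs). Of the words of FKBP9P1, 53.4% also occur in FKBP9.

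ASNSP1 is a pseudogene of ASNS, the asparagine synthetase gene that ATF4, the transcription factor of the integrated stress response, is known to activate. It had 7.27, 6.79 and 6.86 FPKM in HR-19011 and 0.0668, 0.372 and 0.261 FPKM in vehicle, and its log2 change was 2.70 ± 0.0898 (SE, adjusted p = 8.02e-09). ASNS itself stood at 205 ± 6.29 FPKM in HR-19011 and 26.2 ± 0.892 FPKM in vehicle (SD, n = 3 each). Both rose without overlap, and 5.21% of the words of ASNSP1 occur in ASNS.

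RPLP0P2, a copy of the ribosomal stalk protein gene RPLP0, was listed at 3.01, 2.94 and 3.10 FPKM in HR-19011 and at 0, 0.00807 and 0.0245 FPKM in vehicle. Its log2 fold change of 1.99 ± 0.0570 (SE, adjusted p = 3.34e-09) stood beside 0.48 for RPLP0, a gene at 2740 FPKM in HR-19011 and 1967 FPKM in vehicle. RPLP0P2 shares 2.68% of its words with RPLP0.

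NMRAL2P, a relative of the redox sensor gene NMRAL1, had 2.77, 2.13 and 2.43 FPKM in HR-19011 and 0.149, 0.0558 and 0.104 FPKM in vehicle (log2 fold change 1.64, adjusted p = 9.73e-08). NMRAL1 did not pass the test, at 33.4 ± 2.15 FPKM in HR-19011 and 33.2 ± 1.14 FPKM in vehicle. None of the words of NMRAL2P occurs in another gene. PPP4R1L, related to a regulatory subunit gene of protein phosphatase 4, rose to 6.34, 6.25 and 5.95 FPKM in HR-19011, against 1.07, 1.236 and 1.06 FPKM in vehicle (1.76, adjusted p = 5.58e-09), and also shares no word with another gene.

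LOC100419583, named in the files as a pseudogene of the ubiquitin ligase gene RNF4, had 6.71, 7.13 and 6.94 FPKM in HR-19011 and 1.17, 1.07 and 1.28 FPKM in vehicle (log2 fold change 1.87, adjusted p = 3.64e-09). CUTALP, a unitary pseudogene of the CUTA family, was the most abundant of the 10 highest. It had 30.96, 31.5 and 30.9 FPKM in HR-19011 and 10.4, 9.67 and 10.2 FPKM in vehicle, which gave a log2 change of 1.54 ± 0.0358 (SE, adjusted p = 1.04e-09). CUTA rose by less, to 120 ± 1.41 FPKM in HR-19011 against 98.5 ± 1.66 FPKM in vehicle.

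USP32P3, USP32P1 and CCDC144CP complete the 10 highest, and all lie on chromosome 17 in duplicated copies of one segment. USP32P3 had 12.9, 13.1 and 12.5 FPKM in HR-19011 and 0.384, 0.441 and 0.430 FPKM in vehicle (log2 fold change 3.29, adjusted p = 1.13e-10). USP32P1 had 5.62, 5.56 and 5.56 FPKM in HR-19011 and 0.108, 0.0536 and 0.0838 FPKM in vehicle (2.61, adjusted p = 4.81e-10). CCDC144CP had 2.92, 3.20 and 3.16 FPKM in HR-19011 and 0.0567, 0.0532 and 0.0773 FPKM in vehicle (1.95, adjusted p = 4.67e-09). All were near 0 in every vehicle library, so they passed the limit of 1 FPKM through HR-19011, and none overlapped between groups. USP32, a deubiquitinase gene and the parent of the first pair, did not pass the test, at 11.7, 11.4 and 11.9 FPKM in HR-19011 and 11.99, 11.7 and 12.1 FPKM in vehicle.

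The segment occurs in 3 copies, each with a CCDC144, a FAM106 and a USP32P row, a set chosen after its values were seen. CCDC144A (chr17:16666717-16777881) lies beside USP32P1 (chr17:16786892-16804505), CCDC144B (chr17:18537800-18625617) beside USP32P2 (chr17:18511262-18521252), and CCDC144CP (chr17:20321174-20402191) beside USP32P3 (chr17:20410516-20433068). In all 9 rows every HR-19011 value was above every vehicle value, though 5 rows had a mean under 1 FPKM and were not tested. The groups did not overlap, in either direction, in 85.2% of all tested genes. Rows of these copies share sequence, so the 9 are not separate observations. The coding gene CCDC144A stood at 3.17 ± 0.152 FPKM in HR-19011 and 0.0498 ± 0.0194 FPKM in vehicle (SD, n = 3 each). Below the limit, CCDC144B stood at 1.51 FPKM in HR-19011 and 0.0310 FPKM in vehicle, and USP32P2 at 1.34 FPKM in HR-19011 and 0.0319 FPKM in vehicle. Of the words of USP32P3, 46.4% occur in USP32P1 and 28.5% in USP32P2; of those of CCDC144CP, 70.2% occur in CCDC144A. Which copy gave the reads can therefore not be told apart for much of these rows. USP32P4, a plain pseudogene row far from these copies on the same chromosome, did not pass the test, at 2.20 ± 0.326 FPKM in HR-19011 and 2.35 ± 0.144 FPKM in vehicle.

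RRP7BP had the lowest log2 fold change of FPKM + 1 of all members. Its parent in sequence, RRP7A, encodes a factor of small ribosomal subunit assembly. RRP7BP had 3.83, 3.88 and 3.36 FPKM in HR-19011 and 11.8, 12.4 and 12.03 FPKM in vehicle, and its log2 fold change was -1.48 ± 0.0530 (SE, adjusted p = 1.28e-08). RRP7A fell alike, with 6.94, 6.91 and 6.83 FPKM in HR-19011 and 18.0, 19.2 and 19.3 FPKM in vehicle; the symbol does not end in P and a number, so this pair was not among those tested. The words of RRP7BP occur in RRP7A for 19.7%. Both lie within 100 kb on chromosome 22 together with SERHL, a member, and SERHL2, a coding gene, which fell too (log2 fold changes -0.63 and -0.83). Exons of RRP7BP overlap SERHL2 on the opposite strand.

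LOC100420587, named as a pseudogene of a spindle-associated gene, had 2.07, 2.19 and 2.00 FPKM in HR-19011 and 6.13, 6.52 and 6.22 FPKM in vehicle (log2 fold change -1.24, adjusted p = 2.19e-08). SORD2P, a copy of the sorbitol dehydrogenase gene SORD, had 1.09, 1.241 and 1.31 FPKM in HR-19011 and 2.73, 2.84 and 2.75 FPKM in vehicle (-0.77, adjusted p = 1.79e-06). SORD fell to 3.46 ± 0.0967 FPKM in HR-19011, against 9.07 ± 0.504 FPKM in vehicle, and 72.9% of the words of SORD2P occur in another gene. LOC728554, named as a pseudogene of the mRNA export gene THOC3, had 13.3, 14.1 and 13.9 FPKM in HR-19011 and 25.6, 24.96 and 25.9 FPKM in vehicle (-0.84, adjusted p = 3.12e-08). THOC3 moved the same way, at 22.7 ± 0.741 FPKM in HR-19011 and 43.2 ± 0.305 FPKM in vehicle.

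On chromosome X, the neighbours LOC389906, FAM239A and FAM239B fell together, with log2 fold changes of -0.88, -0.85 and -0.95. FAM239B had 3.98, 3.87 and 3.83 FPKM in HR-19011 and 8.32, 8.43 and 8.68 FPKM in vehicle (adjusted p = 3.87e-08). FAM239A had 4.09, 4.18 and 4.39 FPKM in HR-19011 and 8.32, 8.64 and 8.34 FPKM in vehicle. The next gene, FAM239C, is labelled lncRNA in the files and fell by 0.81 on the log2 scale. The other 3 of the 10 lowest were PKD1P6-NPIPP1 at 14.4 ± 0.253 FPKM in HR-19011 and 26.8 ± 1.79 FPKM in vehicle, LOC93622 at 14.7 ± 1.14 FPKM in HR-19011 and 24.99 ± 0.351 FPKM in vehicle, and LOC107985567 at 0.846 ± 0.0321 FPKM in HR-19011 and 2.14 ± 0.443 FPKM in vehicle.

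**Figure D2:**
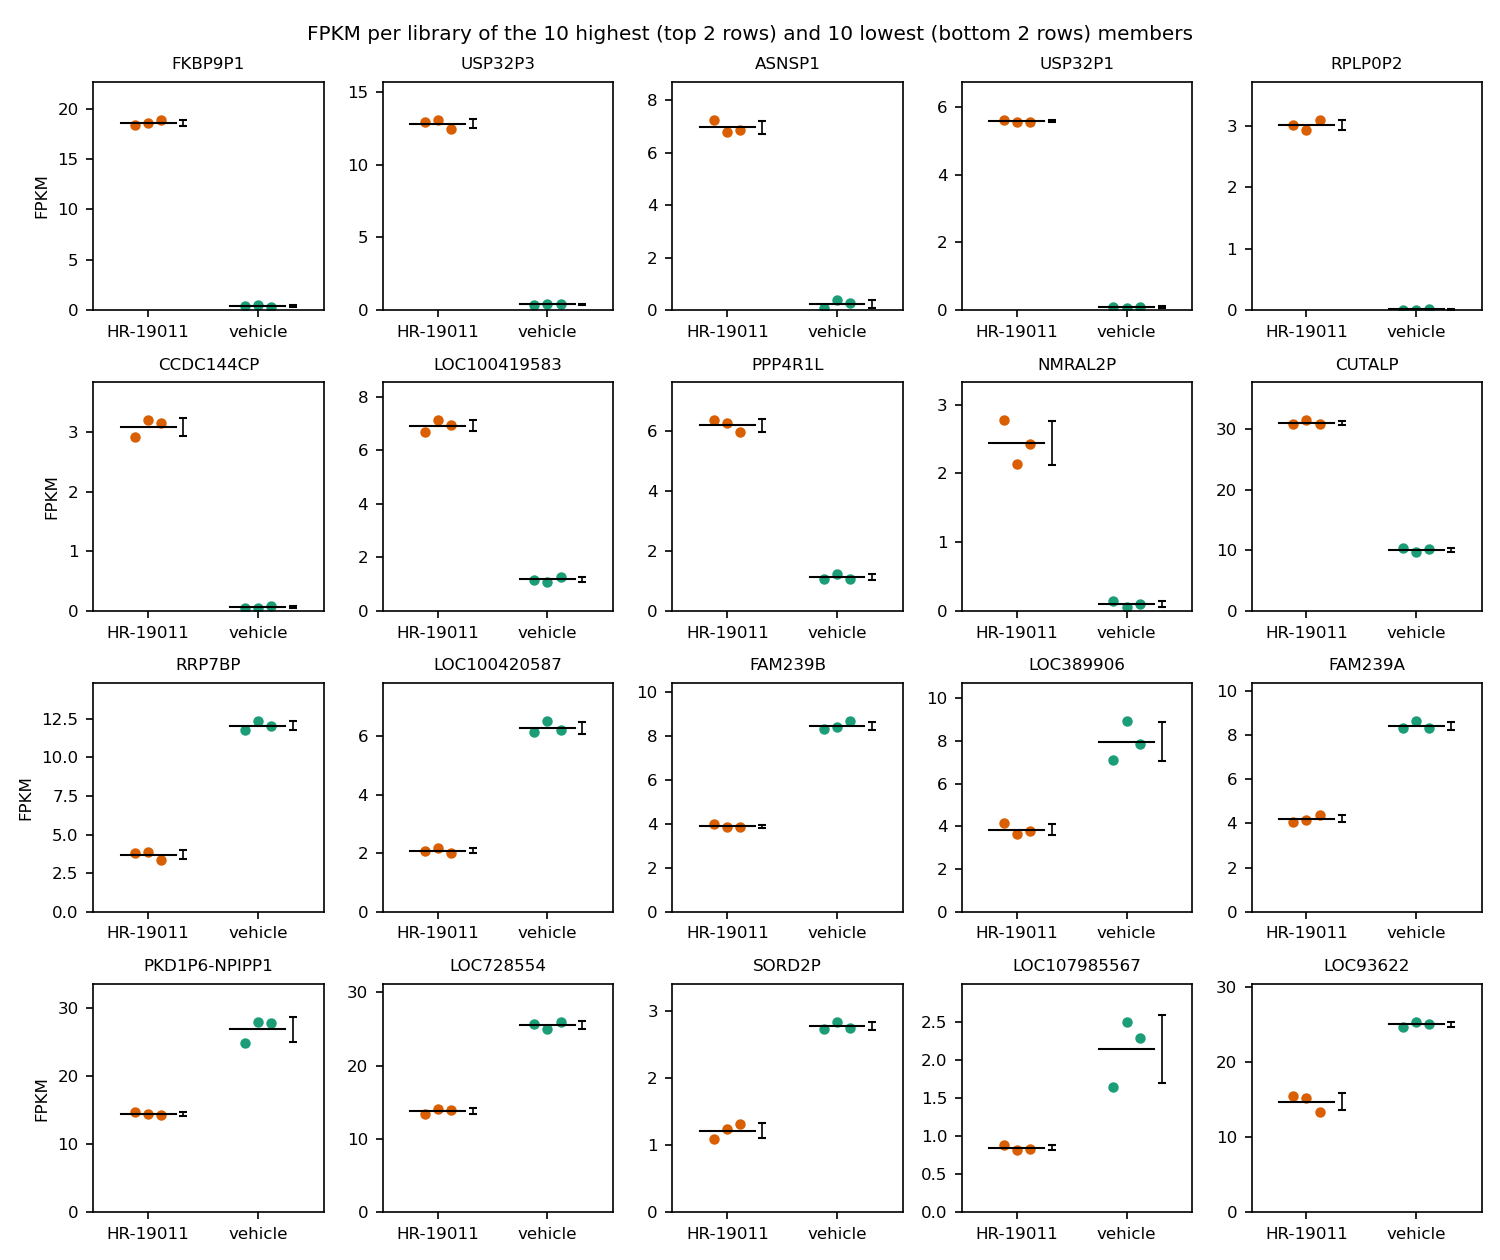
FPKM in each library (points) of the 10 members with the highest and the 10 with the lowest log2 fold change among called members without overlap, HR-19011 left of vehicle in each panel, with means (lines) and SD (bars, n = 3). Each panel starts at 0 and has its own scale; FKBP9P1 stands at 18.3 to 18.9 FPKM in HR-19011 and under 1 FPKM in vehicle.

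Of the 6 most abundant members, 5 were lower and 1 higher as deposited, with log2 fold changes between -0.63 and 0.20. H3P6, a histone H3 pseudogene, had 71.9, 74.5 and 74.1 FPKM in HR-19011 and 99.3, 86.4 and 99.0 FPKM in vehicle, a log2 change of -0.36 ± 0.0517 (SE, adjusted p = 0.000148). TPTEP1, from the family of a testis phosphatase gene, had 65.5, 64.0 and 62.7 FPKM in HR-19011 and 74.9, 76.5 and 80.1 FPKM in vehicle (-0.26, adjusted p = 6.02e-05). Its parent TPTE was far lower, at 1.97 ± 0.133 FPKM in HR-19011 and 1.38 ± 0.221 FPKM in vehicle, and rose.

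LOC653513 was higher as deposited, with a log2 fold change of 0.20 from 55.2 ± 1.55 FPKM in HR-19011 and 47.8 ± 1.251 FPKM in vehicle, but stood at -0.05 with TMM scaling. UBBP4, a polyubiquitin pseudogene, fell to 32.6 ± 1.19 FPKM in HR-19011, against 42.3 ± 1.78 FPKM in vehicle, while UBB, which encodes ubiquitin, rose to 656 ± 10.0 FPKM against 514 ± 9.61 FPKM in vehicle. PI4KAP2 was lower by 0.12 on the log2 scale as deposited and near 0 in TPM and after quantile normalization. SBDSP1 fell with its parent SBDS, a ribosome maturation gene: the pseudogene had 19.8, 19.6 and 19.0 FPKM in HR-19011 and 32.01, 28.8 and 31.3 FPKM in vehicle, and SBDS 49.4 ± 2.23 FPKM in HR-19011 and 71.6 ± 2.50 FPKM in vehicle. Their log2 fold changes of -0.63 and -0.53 did not differ beyond the threshold as deposited (difference -0.10 ± 0.0530, SE, adjusted p = 0.191). With quantile normalization the difference was -0.19 and called (limma, adjusted p = 0.018).

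A parent in the files was found for 125 members, 122 by the symbol and 3 by a synonym, and 116 of these pairs, with 73 distinct parents, had both genes at a mean of at least 1 FPKM. For each pair, the log2 difference of pseudogene and parent within a library was tested with limma, adjusted over all 382 pairs of any pseudogene biotype. Of those 382 pairs, 35.6% were called, 20.7% with the pseudogene higher relative to the parent and 14.9% lower. Of the 116 pairs, 72 were called, 44 higher and 28 lower, with a median difference of 0.12. Quantile normalization turned this lean, with 33 higher and 45 lower and a median of -0.0840, and of 23 pairs whose pseudogene shared under 20% of its words with any other gene 7 were higher and 9 lower. The genes themselves were both called in the same direction in 46 pairs, 34 up and 12 down. They were called in opposite directions in 34 pairs, in 19 with the pseudogene higher and the parent lower, and in 36 pairs at least one gene was not called. Across the 116 pairs, Pearson's r of the log2 fold changes was 0.29 and Spearman's rho 0.14, as a description of points that share libraries and, in 61 pairs, a parent.

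The pseudocount of 1 shrinks the fold change of a low gene, and most pseudogenes were lower than their parents, so part of a difference can come from the level alone. For ASNSP1 and ASNS the difference was -0.22 and not called, but 1.57 with a pseudocount of 0.1 and -1.56 with a pseudocount of 5, and -0.35 and called without vehicle replicate 1, and -0.52 and called with quantile normalization. Whether ASNSP1 followed ASNS in proportion can therefore not be read from these values.

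**Figure D3:**
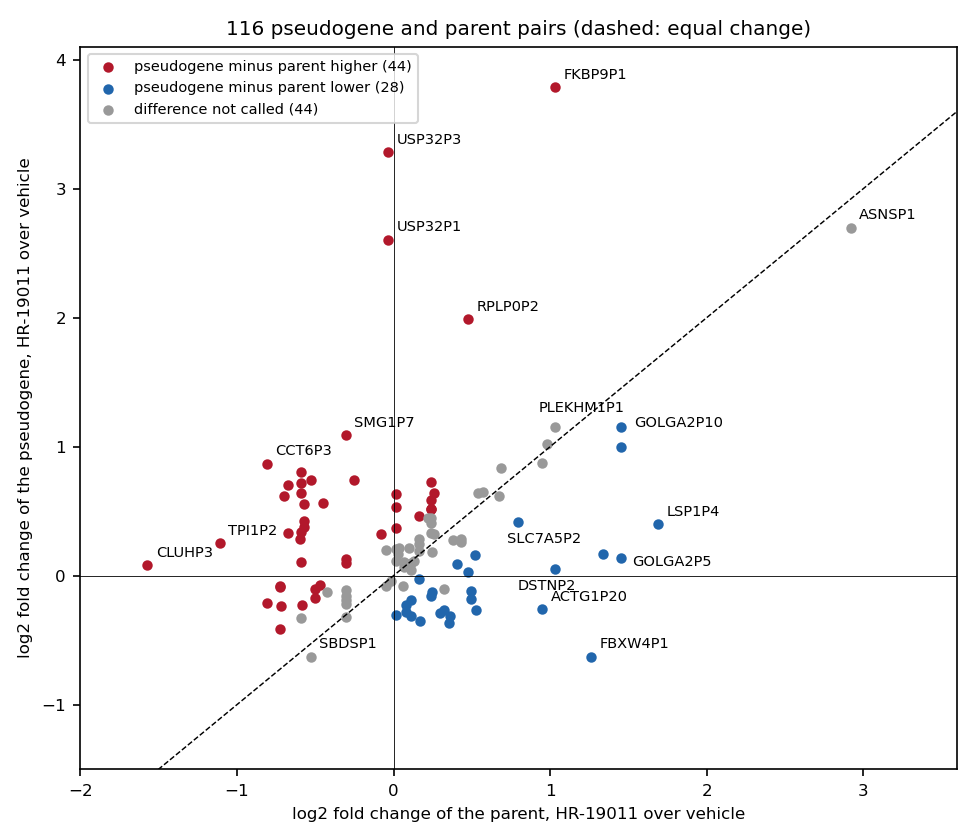
Log2 fold change of the pseudogene (vertical axis) against that of its parent (horizontal axis), HR-19011 over vehicle, for 116 pairs, coloured by the test of the difference. Points on the dashed line changed equally; USP32P3 and USP32P1 stand high above a parent at -0.03, and CLUHP3 stands at 0.08 beside a parent at -1.57.

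After USP32P3, FKBP9P1 and USP32P1, the highest differences belonged to CCT6P3, CLUHP3 and RPLP0P2. CCT6P3, a copy of the chaperonin subunit gene CCT6A, had 3.47, 3.34 and 3.58 FPKM in HR-19011 and 1.55, 1.22 and 1.58 FPKM in vehicle, while CCT6A fell to 112 ± 3.64 FPKM in HR-19011 against 198 ± 7.03 FPKM in vehicle (difference 1.68 ± 0.0728, SE, adjusted p = 1.91e-06). CLUHP3 had 3.03, 3.40 and 2.82 FPKM in HR-19011 and 2.57, 2.88 and 3.14 FPKM in vehicle, which overlap. Its parent CLUH, whose protein binds mRNAs of mitochondrial proteins, had 15.98, 16.3 and 15.8 FPKM in HR-19011 and 47.5, 50.1 and 51.4 FPKM in vehicle, and the difference was 1.65 ± 0.0671 (SE, adjusted p = 1.56e-06). None of the words of CLUHP3 occurs in CLUH.

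The lowest differences came from pairs whose parent rose. FBXW4P1 fell to 0.737, 1.09 and 0.752 FPKM in HR-19011, against 1.52, 2.09 and 2.02 FPKM in vehicle, while FBXW4 rose to 6.23 ± 0.0466 FPKM in HR-19011 against 2.01 ± 0.0707 FPKM in vehicle (difference -1.89 ± 0.120, SE, adjusted p = 1.14e-05). ACTG1P20, a pseudogene of the gamma actin gene ACTG1, fell to 1.18 ± 0.0696 FPKM in HR-19011 against 1.61 ± 0.110 FPKM in vehicle, while ACTG1 rose to 827 FPKM against 427 FPKM (difference -1.21). LSP1P4 had 2.35, 2.47 and 3.07 FPKM in HR-19011 and 2.15, 1.67 and 1.45 FPKM in vehicle, and LSP1, a leukocyte actin-binding protein gene, 2.28 ± 0.294 FPKM in HR-19011 and 0.0118 ± 0.00445 FPKM in vehicle (difference -1.29). LSP1 thus entered the test through HR-19011 alone.

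SLC7A5P2 had 2.42, 2.28 and 2.37 FPKM in HR-19011 and 1.85, 2.09 and 2.01 FPKM in vehicle, without overlap (log2 fold change 0.17, adjusted p = 0.0173). That call was lost without HR-19011 replicate 1 (adjusted p = 0.054) or vehicle replicate 1 (0.056), and the sign turned with TMM scaling and quantile normalization (-0.0049 and -0.18). SLC7A5, the amino acid transporter subunit also called LAT1, rose to 161 ± 3.33 FPKM in HR-19011 against 63.2 ± 0.751 FPKM in vehicle, and the difference was -1.17 ± 0.0663 (SE, adjusted p = 7.11e-06). Of the words, 50.6% of those of SLC7A5P2 occur in SLC7A5, and it overlaps SMG1P3 on the same strand. GOLGA2P5 and DSTNP2 did not pass the test themselves, at 1.34 ± 0.137 FPKM in HR-19011 and 1.12 ± 0.139 FPKM in vehicle for GOLGA2P5 and at 3.05 ± 0.238 FPKM in HR-19011 and 2.93 ± 0.442 FPKM in vehicle for DSTNP2, while their parents GOLGA2 and DSTN rose.

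The smallest differences among parents that changed at least 2-fold in FPKM + 1 were those of PLEKHM1P1, ASNSP1, GOLGA2P10 and GOLGA2P7. PLEKHM1P1, a copy of a lysosome adaptor gene, had 6.87, 6.57 and 6.94 FPKM in HR-19011 and 2.41, 2.40 and 2.71 FPKM in vehicle. PLEKHM1 had 8.95, 8.76 and 9.13 FPKM in HR-19011 and 3.76, 3.89 and 3.92 FPKM in vehicle. The log2 fold changes of 1.15 and 1.03 did not differ beyond the threshold (difference 0.12 ± 0.0580, SE, adjusted p = 0.163), and 27.2% of the words are shared. GOLGA2P10 and GOLGA2P7 rose with the golgin gene GOLGA2, to 15.3 ± 0.683 FPKM in HR-19011 against 6.35 ± 0.465 FPKM in vehicle and to 6.82 ± 0.0968 FPKM against 2.93 ± 0.280 FPKM. Both nevertheless lagged behind GOLGA2, by -0.30 for GOLGA2P10 (adjusted p = 0.00733; 0.055 with a pseudocount of 0.1) and by -0.46 for GOLGA2P7 (adjusted p = 0.000598). They share under 1% of their words with GOLGA2 but 83.0% and 42.4% with any other gene. GOLGA2 stood at 91.5 ± 1.84 FPKM in HR-19011 and 32.7 ± 1.09 FPKM in vehicle.

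Shared sequence went with smaller differences between pseudogene and parent. Of 107 pairs with sequences, 37 had at least 20% of the pseudogene's words in the parent, and 51.4% of these were called, with a median absolute difference of 0.19. In 48 pairs with 1% to 20% of words in the parent, 66.7% were called and the median was 0.41. In 22 pairs with under 1%, 63.6% were called and the median was 0.40. The part of divided reads in the smaller differences was not tested. GTF2IP4, with 84.4% of its words in GTF2I, still differed from it by 0.92 ± 0.0560 (SE, adjusted p = 9.60e-06).

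**Figure D4:**
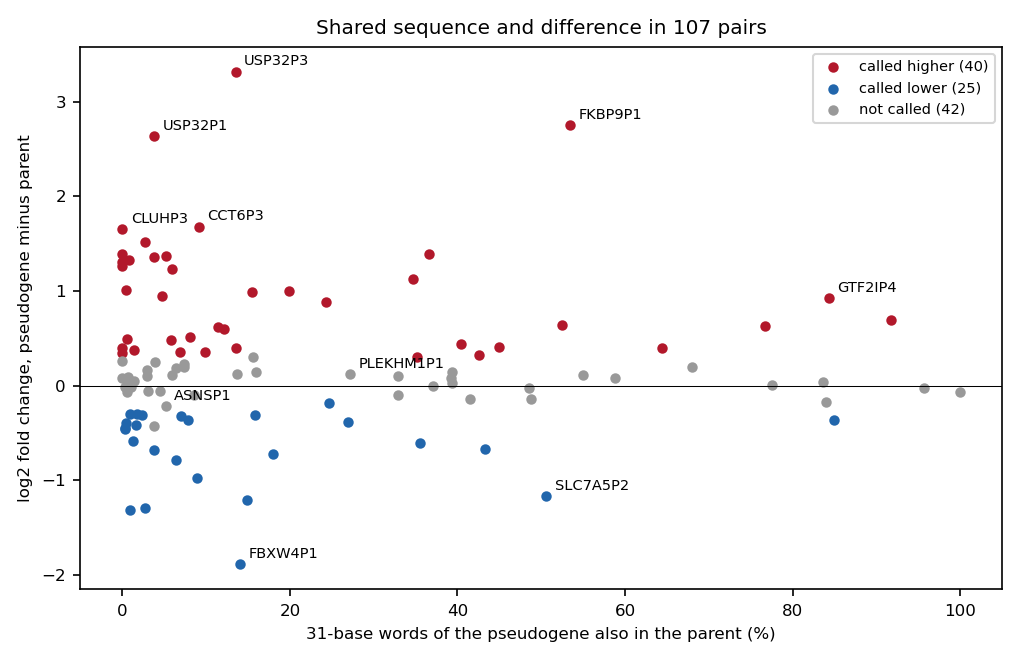
Difference in log2 fold change, pseudogene minus parent (vertical axis), against the percentage of the pseudogene's 31-base words that also occur in the parent's transcripts (horizontal axis), for 107 pairs coloured by the test of the difference. Of these pairs, 40 are called higher and 25 lower, and FKBP9P1 lies far above 0 at 53.4% of words shared.

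Members of one family did not always move as one, nor with the parent. For comparison, 55.2% of all members were called higher and 24.6% lower, and 46.4% and 38% of all tested genes. The 6 pseudogenes of FRG1, a nuclear RNA-binding protein gene, all rose, as deposited and under every other scaling tried, and were grouped after their values were seen. They share sequence with FRG1 and with one another, so the 6 are not separate observations. From 13.2% (FRG1HP) to 42.5% (FRG1BP) of their words occur in FRG1, and 37.5% of those of FRG1BP occur in FRG1HP. FRG1BP had 14.4, 14.03 and 14.6 FPKM in HR-19011 and 7.67, 6.69 and 4.44 FPKM in vehicle, a log2 change of 1.11 ± 0.144 (SE, adjusted p = 7.75e-05). FRG1CP stood at 8.94 ± 0.746 FPKM in HR-19011 and 5.70 ± 0.144 FPKM in vehicle. Together the 6 summed to 41.1 ± 0.835 FPKM in HR-19011 and 20.4 ± 0.863 FPKM in vehicle (SD, n = 3 each), while FRG1 rose by less, to 41.7 ± 2.12 FPKM in HR-19011 against 34.3 ± 2.36 FPKM in vehicle. FRG1GP, a plain pseudogene row, did not pass the test at 3.19 ± 0.263 FPKM in HR-19011 and 2.83 ± 0.608 FPKM in vehicle.

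Of 6 copies of GTF2I, a general transcription factor gene, 5 went against their parent as deposited and 4 with TMM scaling. Their shared sequence is unlike: 91.7% of the words of GTF2IP1, 84.4% of those of GTF2IP4 and 5.92% of those of GTF2IP23 occur in GTF2I. None of those of GTF2IP20, GTF2IP13 and GTF2IP12 does. The levels of GTF2IP1 and GTF2IP4 are therefore uncertain. GTF2I fell to 24.5 ± 0.439 FPKM in HR-19011, against 37.4 ± 1.2399 FPKM in vehicle. As deposited GTF2IP12 fell, and 5 of the 6 pairs were called higher than the parent. GTF2IP4 had 21.9, 20.9 and 20.7 FPKM in HR-19011 and 16.6, 16.5 and 16.6 FPKM in vehicle (log2 fold change 0.34, adjusted p = 1.44e-05), and GTF2IP20 7.29, 7.79 and 7.12 FPKM in HR-19011 and 3.97, 4.27 and 4.102 FPKM in vehicle. GTF2IP1 was higher by 0.10 as deposited and lower, at -0.14, with TMM scaling.

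Of 38 pairs with a parent that fell, 19 pseudogenes rose, 12 fell and 7 were not called. Of 60 with a parent that rose, 34 pseudogenes rose, 15 fell and 11 were not called. Of 18 with a parent not called, 8 rose, 1 fell and 9 were not called. Among all members, 55.2% rose and 24.6% fell. Both NSUN5 copies fell with NSUN5, a call that both lost in TPM, and with ANAPC1 lower ANAPC1P6 fell and ANAPC1P2 and ANAPC1P4 were not called. SDHA, a subunit gene of succinate dehydrogenase, fell to 31.9 ± 3.54 FPKM in HR-19011 against 47.9 ± 4.52 FPKM in vehicle, and its 3 pseudogenes, grouped after their values were seen, rose. SDHAP1 had 12.4, 12.9 and 12.6 FPKM in HR-19011 and 8.94, 9.32 and 9.15 FPKM in vehicle, and SDHAP3 5.31, 5.66 and 5.86 FPKM in HR-19011 and 3.30, 3.55 and 3.62 FPKM in vehicle. BMS1, a ribosome assembly gene, fell by 0.67 on the log2 scale, and all 4 members named for it rose as deposited, against 2 with TMM scaling and 2 with quantile normalization, where BMS1P2-AGAP9 turned to -0.10. BMS1P20 stood at 14.4 ± 0.882 FPKM in HR-19011 and 11.2 ± 0.440 FPKM in vehicle.

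The 8 members named for GUSB, the beta-glucuronidase gene, included 7 that rose and GUSBP1, which was lower. Among all members, 55.2% were called higher and 24.6% lower. GUSBP11 had 5.85, 6.56 and 5.79 FPKM in HR-19011 and 3.13, 3.43 and 3.25 FPKM in vehicle (log2 fold change 0.72, adjusted p = 2.34e-06), and GUSBP1 6.60, 7.16 and 7.38 FPKM in HR-19011 and 7.96, 7.76 and 8.20 FPKM in vehicle (-0.16, adjusted p = 0.0136; 0.055 without HR-19011 replicate 1). With quantile normalization 4 of the 8 were higher. GUSB rose to 44.9 ± 1.14 FPKM in HR-19011 against 37.9 ± 0.902 FPKM in vehicle.

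Copies of the mismatch repair gene PMS2 split, with 4 of 7 higher, 1 lower and 2 not called as deposited, and 2 higher, 1 lower and 4 not called with a median of -0.0194 after quantile normalization, while PMS2 did not pass the test at 6.01 ± 0.150 FPKM in HR-19011 and 5.95 ± 0.150 FPKM in vehicle. The 4 of 7 as deposited is near the 55.2% of all members called higher. PMS2P1, at 12.5 ± 0.324 FPKM in HR-19011 and 15.7 ± 0.436 FPKM in vehicle, exceeded PMS2 and fell, and PMS2P3 rose to 8.12 ± 0.148 FPKM in HR-19011 against 6.07 ± 0.386 FPKM in vehicle. Copies of SMG1, a kinase gene of nonsense-mediated decay, had 2 higher, 2 lower and 2 not called of 6. The 4 of HERC2 had 3 higher as deposited and none with TMM scaling, and the 6 of WASH had 2 higher and 1 lower as deposited but 5 lower with TMM scaling.

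Of 14 ribosomal protein pseudogenes, 4 rose, 4 fell and 6 were not called, with a median of 0.07. Quantile normalization gave 1 higher and 10 lower. The 14 include MRPL45P2 and MRPS31P5, named for mitochondrial ribosomal proteins. They leave out RPLP0P2, which rose by 1.99 on the log2 scale. RPL13AP5 had 8.89, 9.09 and 10.7 FPKM in HR-19011 and 8.13, 7.84 and 7.37 FPKM in vehicle (log2 fold change 0.26, adjusted p = 0.00573), and its call was lost with TMM scaling and quantile normalization. RPL23AP7 had 3.93, 3.47 and 3.85 FPKM in HR-19011 and 5.02, 4.82 and 4.82 FPKM in vehicle (-0.31, adjusted p = 0.000443). Zinc finger pseudogenes had 5 higher, 1 lower and 3 not called of 9 as deposited, 5 higher and 3 lower with TMM scaling, and 4 higher and 3 lower with a median of -0.0271 after quantile normalization. As deposited, 5 of 9 higher is near the share of all members, of which 55.2% were called higher and 24.6% lower. The most abundant was ZNF767P at 7.97 ± 0.387 FPKM in HR-19011 and 5.07 ± 0.226 FPKM in vehicle. Of 4 FAM86 copies 3 fell, and FAM86DP rose to 5.13 ± 0.181 FPKM in HR-19011 against 2.89 ± 0.202 FPKM in vehicle.

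**Figure D5:**
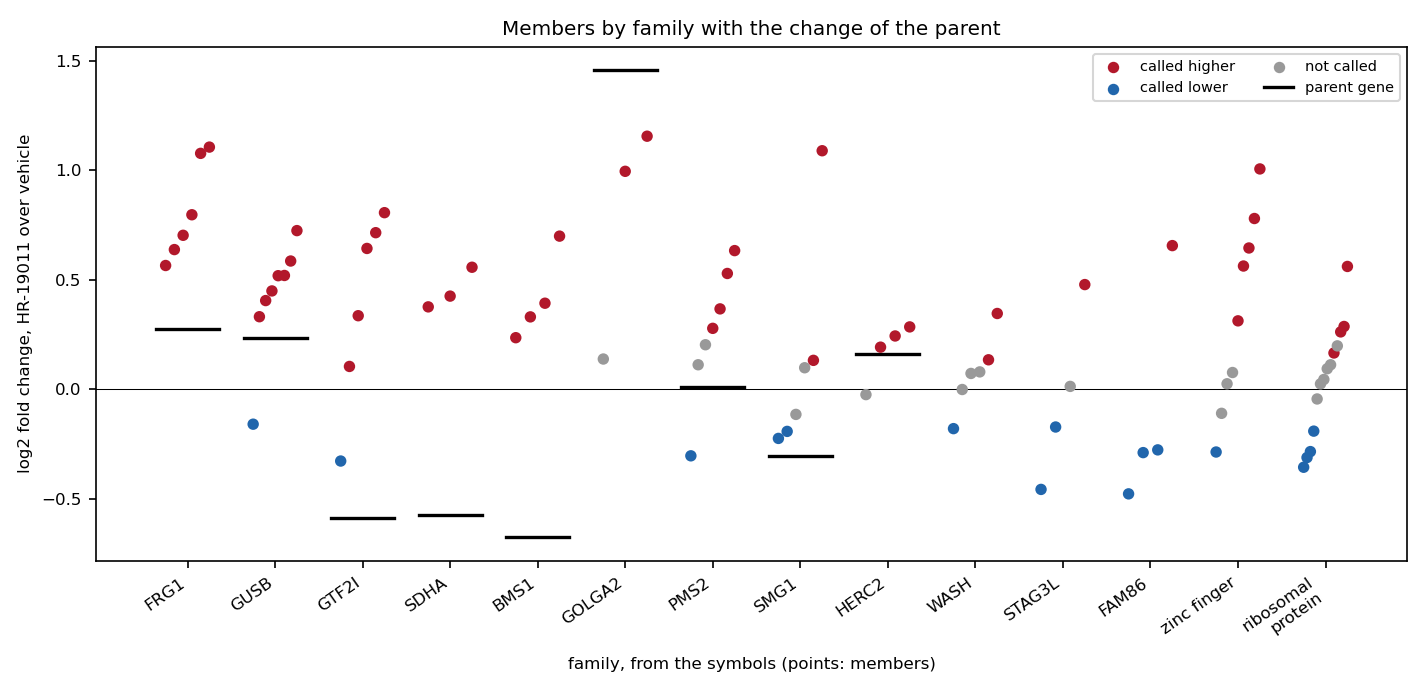
Log2 fold change, HR-19011 over vehicle, of the members of 14 families (points, coloured by the limma call) with the change of the parent gene where 1 parent applies (black lines). The ribosomal protein family leaves out RPLP0P2. As deposited, all FRG1, SDHA and BMS1 points are above 0 (BMS1P2-AGAP9 turned to -0.10 with quantile normalization), and the lines of GTF2I, SDHA and BMS1 are below it.

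The members lay unevenly over the genome. Chromosome 7 held 36 of them, or 14.3%, against 5.10% of all tested genes, and chromosome 15 held 26, or 10.3%, against 3.23%. With gaps of up to 100 kb, 78 members fell into 35 clusters of 2 or more, of which 13 had every member higher, 3 every member lower and 8 members of both directions. Of all members, 55.2% were called higher and 24.6% lower. Whether neighbours moved alike more often than these shares would give was not tested. On chromosome 17, PLEKHM1P1 and both ARHGAP27P1 rows rose together, with log2 fold changes of 1.02 to 1.48, and their exons overlap on the same strand. On chromosome 9, CUTALP rose by 1.54 while its neighbour B3GNT10 did not pass the test at 0.07. On chromosome 15, LOC100419583 rose by 1.87 and SORD2P, within the same cluster, fell by 0.77.

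In 19 of 125 members with a parent, the pseudogene exceeded the parent in mean FPKM, and 9 of these parents lay under 1 FPKM. CIDECP1 stood at 11.9 FPKM in HR-19011 and 12.6 FPKM in vehicle while CIDEC was listed at 0 in every library. DUXAP8, DUXAP9 and DUXAP10 stood at 4.82, 11.8 and 5.28 FPKM in HR-19011 and at 4.28, 8.13 and 4.48 FPKM in vehicle, with DUXA, a homeobox gene, listed at 0. TEKT4P2 stood at 22.5 FPKM in HR-19011 and 27.0 FPKM in vehicle beside TEKT4 at 0.139 FPKM in HR-19011 and 0.226 FPKM in vehicle. CROCCP2 stood at 19.1 FPKM in HR-19011 and 19.5 FPKM in vehicle beside the rootlet protein gene CROCC at 1.11 FPKM in HR-19011 and 0.326 FPKM in vehicle.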

How the data were processed

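Total RNA of K562 cells was made into stranded libraries from polyadenylated RNA, per the labels' protocols. Trimmomatic 0.38, StringTie 2.1.3b, SAMtools 1.9, HISAT2 2.1.0, Bowtie2 and the GRCh38 build are named, without roles, in the submitters' processing notes. Each file gives 1 FPKM value a gene, which the authors computed and deposited. Low values gave no whole multiples of a read (28.8% to 32.9% within 0.1 of one at the best of many steps), so depth is unknown and no interval is given.

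limma 3.58.1 (R 4.3.3, two-sided, with a variance trend) was run on log2(FPKM + 1) of the genes that averaged 1 FPKM or more; fold changes of low genes are understated. Pairs were tested in the same way on the pseudogene minus the parent. An exact permutation test was left out, its smallest p being 0.1 for 3 against 3. The tests were tried on simulated data, but no outcome is given here, so this lends them no support. Groups came from sample titles; replicate numbers did not pair the samples (deviations of same-numbered libraries correlated at -0.034, -0.0045 and -0.11). At most 0.0843% of values were identical between libraries of a group. Sequences and exons came from GENCODE 29, alignments from BLAST+ 2.17.0 and gene positions from RefSeq on GRCh38.p14, by gene identifier.

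The members, lists and tests were chosen with earlier results of these data known. Genes named are the 10 highest and 10 lowest called members without overlap, the 6 most abundant, 6 pairs with the highest, 6 with the lowest and 4 with the smallest difference, 3 genes on each side of the limit, and up to 3 members a family. Others, named for position, a silent parent or a neighbour, were picked with their values known. The alternatives were other pseudocounts, filters, scalings, thresholds, libraries left out, the replicate number as a block, and subsets with little shared sequence or exon overlap. One marker of the K562 list is not reported here.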

Additional observations from a re-analysis of the deposited data

How the results depend on the processing

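The median log2 fold change of the members was 0.0978 with a pseudocount of 5. Without a filter on low values, 292 transcribed pseudogenes were higher with a median of 0.0473, and 134 pairs were higher and 96 lower. With a mean of at least 5 FPKM, 40 members were higher and 31 lower with a median of 0.0731, and 18 pairs were higher and 10 lower; fewer genes were tested. TMM scaling gave 95 members lower and a median of -0.0022, TPM gave 40 lower and a median of 0.34, and quantile normalization gave 103 lower, a median of -0.0471, and 33 pairs higher and 45 lower. Against a change of 1.5-fold, 46 members were higher and 9 lower, and 21 pairs were higher and 6 lower. Among pairs with under 20% of words in the parent, 27 were higher. Among the 63 members with under 20% of words in another gene, a subset added after seeing the data, 33 were higher and 16 lower, with 7 pairs higher and 9 lower. The replicate block gave 137 members higher and 61 lower and 44 pairs higher and 26 lower, and changed the call of 1 named result, HERC2P3 minus its parent. Leaving out 1 library gave 130 to 136 members higher, 55 to 63 lower, medians of 0.186 to 0.202, 42 to 46 pairs higher and 25 to 28 lower.

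The sign turned with TMM scaling for LOC653513 (-0.0490), SLC7A5P2 (-0.0049), GTF2IP1 (-0.14), STAG3L1 (-0.21), SMG1P3 (-0.0887), HERC2P2 (-0.0472), WASH7P (-0.11), WASH9P (-0.16), PKD1P1 (-0.17) and PKD1P3-NPIPA1 (-0.17), and, called in neither fit, for CLUHP3 (-0.11), GOLGA2P5 (-0.0022), DSTNP2 (-0.14), HNRNPA1P10 (-0.14), ZNF271P (-0.14), PMS2P5 (-0.0988), SMG1P1 (-0.12) and RPSAP9 minus its parent (0.0087). It turned for PI4KAP2 in TPM (0.0054) and with quantile normalization (0.0095). In TPM it also turned, uncalled, for SSX8P (0.0807), RPSAP9 (0.0684), HERC2P3 (0.0909), WASH3P (0.12) and ASNSP1 minus its parent (0.49). Quantile normalization also turned CLUHP3 (-0.24), GOLGA2P5 (-0.21), SLC7A5P2 (-0.18), DSTNP2 (-0.27), ZNRF2P1 (-0.14), STAG3L1 (-0.17), SMG1P3 (-0.0502), BMS1P2-AGAP9 (-0.0954) and GUSBP9 minus its parent (-0.0311), and, called in neither fit, ZNF271P (-0.12), PMS2P5 (-0.14), SMG1P1 (-0.0907), PKD1P1 (-0.0551), PKD1P3-NPIPA1 (-0.0939), and the differences from the parent of SMG1P2 (-0.0040), HERC2P9 (-0.0049) and PKD1P1 (0.0391). With a pseudocount of 5 the differences of PLEKHM1P1 (-0.0025) and PKD1P1 (0.0032) turned, and with equal totals STAG3L1 (-0.0017). Leaving out 1 library gave values on both sides of 0, none called, for SSX8P (-0.0523 to 0.0705), STAG3L1 (-0.0096 to 0.0535), WASH3P (-0.0508 to 0.0515) and DSTNP2 (-0.00093 to 0.14), and for the differences of RPSAP9 (-0.0761 to 0.0217), HNRNPA1P10 (-0.0303 to 0.0903) and PKD1P1 (-0.0135 to 0.0169). The difference of ASNSP1 and ASNS was 1.57 with a pseudocount of 0.1. The cause of these turns was not tested. Of the other values for single members and pairs, 1949 kept direction and side of the threshold, 112 lost their call and 31 gained one. Depth is unknown, so the precision of members near 1 FPKM rests on 3 libraries a group.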
